A study of Rattus norvegicus with 19 samples.

Results

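Voltage-gated calcium channels open when a neuron depolarises and let calcium into the cell, where it triggers transmitter release, shapes firing and drives gene expression. Their pore is formed by a single large alpha subunit, and the gene for that subunit decides the type of current. The rat genes taken here were the alpha subunit genes Cacna1a, Cacna1b, Cacna1c, Cacna1d, Cacna1e, Cacna1g, Cacna1h and Cacna1i, matched by symbol. All 8 were found among the 15597 genes of the deposited table, and all 8 passed the filter on low values, a level of 1 FPKM or more in at least 4 libraries, which 11887 genes passed. FPKM is a count of fragments scaled to transcript length and library size, a level per length, so different genes can be set side by side.

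Levels were measured in 19 RNA sequencing libraries from primary cultures of ventral spinal cord. The cultures came from Sprague-Dawley rat embryos of wild type genotype at embryonic day 14. In the polyP group (5 libraries) the cultures received long-chain synthetic polyphosphate at 100 μM, in the mutSOD1-ACM group (5 libraries) medium conditioned by mouse astrocytes carrying human SOD1 with the G93A change, and in the wtSOD1-ACM group (4 libraries) medium conditioned by astrocytes expressing human wild type SOD1. All 3 exposures lasted 90 min, and the control group (5 libraries) was left untreated. The conditioned media came from spinal cord astrocytes of newborn mice, so the SOD1 genes were in the astrocytes that conditioned the medium and not in the rat cells sequenced. The series had no group given medium of non-transgenic astrocytes, and its control had no conditioned medium at all. For culture age one label field has 7 days in vitro and another has 4. Replication is stated as 4 to 5 separate cultures in the labels and as quadruplicate in the design text, so p-values measure the spread between these libraries, which may be in part technical.

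The alpha subunit genes form 3 families. Cacna1c and Cacna1d encode the L-type channels Cav1.2 and Cav1.3, which sit largely on cell bodies and dendrites and couple activity to transcription. Cacna1a, Cacna1b and Cacna1e encode the P/Q-type, N-type and R-type channels of the Cav2 family, of which the P/Q-type and N-type carry most of the calcium that releases transmitter at nerve endings. Cacna1g, Cacna1h and Cacna1i encode the low-voltage-activated T-type channels of the Cav3 family, which open near the resting potential and support burst firing. L-type and Cav2 channels carry accessory alpha2delta and beta subunits that help bring the pore to the membrane and set its gating, while T-type channels can work without them.

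The cultures were mixed. The 10 neuron markers summed to between 1585 and 2036 FPKM in polyP libraries and between 1129 and 1927 FPKM in control libraries, while 6 motor neuron markers together reached no more than 8.30 FPKM in any library and 3 of them stayed under 1 FPKM throughout. Fibroblast and mural cell markers summed to between 1802 and 3192 FPKM over all libraries. Within every group the libraries fell into 2 sets that the labels do not name. The myelin gene Mbp had between 169 and 372 FPKM in set 1 (11 libraries) and between 6.54 and 9.62 FPKM in set 2 (8 libraries, the last 2 of each group). Set 1 split further into class A (5 libraries, Mbp between 169 and 216 FPKM) and class B (6 libraries, Mbp between 292 and 372 FPKM), and set 2 is called class C below. Among the control libraries, replicate 2 stood apart with the lowest neuron marker sum of all libraries, 1129 FPKM, and the highest microglia marker sum, 553 FPKM. Summed FPKM was 502342 ± 12154 in polyP libraries and 464188 ± 13827 in control libraries (SD, n = 5 each). Absolute depth is unknown, and the relative depth of the libraries, read from the steps of low values, spanned 2.04-fold.

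The start regions of the members differ in base composition. RefSeq promoter windows on build GRCr8, running from 250 bases before to 50 bases after the start of the gene, were at hand for 5 of the 8 members. A GC-rich and a less GC-rich window are shown, as examples of the start regions of members that moved together in the comparisons below. Cacna1b (chr3:27944236-27944535, minus strand, 72.0% G or C) has its matches to the GC box GGGCGG in capitals. Cacna1c (chr4:154051699-154051998, minus strand, 51.7% G or C) has its match to the half-site TGACG of the cyclic AMP response element in capitals.
Cacna1b: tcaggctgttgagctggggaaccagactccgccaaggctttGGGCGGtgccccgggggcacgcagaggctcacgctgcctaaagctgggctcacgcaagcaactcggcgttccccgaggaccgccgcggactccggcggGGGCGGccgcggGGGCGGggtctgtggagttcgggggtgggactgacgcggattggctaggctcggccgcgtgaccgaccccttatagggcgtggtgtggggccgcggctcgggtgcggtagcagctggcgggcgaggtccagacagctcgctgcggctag
Cacna1c: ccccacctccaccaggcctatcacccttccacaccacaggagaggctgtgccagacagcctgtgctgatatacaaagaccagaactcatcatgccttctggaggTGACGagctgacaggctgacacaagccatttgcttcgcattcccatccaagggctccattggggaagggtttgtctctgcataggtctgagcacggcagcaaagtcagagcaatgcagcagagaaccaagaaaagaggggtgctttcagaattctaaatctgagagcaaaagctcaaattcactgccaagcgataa

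The median window among 33469 rat promoters had 51.7% G or C. Cacna1d reached 88.7%, Cacna1a 76.0% and Cacna1e 53.7%. Read on both strands, the GC box GGGCGG occurred 10 times in the Cacna1d window, 3 times in Cacna1b, 1 time in Cacna1a and not in Cacna1c or Cacna1e, against 33.1% of all promoters with at least 1 match. The half-site TGACG occurred 1 time each in Cacna1c and Cacna1b, against 21.2% of promoters, and the full element TGACGTCA and the TATA motif TATAAA occurred in none of the 5 windows, against 1.83% and 14.2% of promoters. Each match is a description of letters and not a site. Among the 5 members with a window, no motif searched was shared by all.

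In level, the T-type genes led. Cacna1h averaged 25.1 ± 6.68 FPKM in polyP cultures, 36.8 ± 11.8 in mutSOD1-ACM cultures, 41.1 ± 9.82 in wtSOD1-ACM cultures and 41.7 ± 9.18 in control cultures (SD, n = 5, 5, 4 and 5). It was followed by Cacna1g at 18.1 ± 3.91, 24.6 ± 5.55, 27.5 ± 5.37 and 27.7 ± 5.09 FPKM in the same groups. In each of the 4 groups the mean levels ran in 1 order, from Cacna1h down through Cacna1g, Cacna1b, Cacna1a, Cacna1c, Cacna1d and Cacna1e to Cacna1i, which averaged 2.52 FPKM with polyP and 3.63 FPKM in controls. These means pool the library sets, and within a set the order was not the same in every group. In set 1 Cacna1e was above Cacna1d in the polyP, wtSOD1-ACM and control groups (5.29 and 4.43 FPKM with polyP, 8.34 and 6.83 FPKM in controls), and in set 2 Cacna1d was above Cacna1c in the mutSOD1-ACM, wtSOD1-ACM and control groups (9.37 and 9.23 FPKM in controls). Between neighbours in that order, the step from Cacna1a to Cacna1c was the only one whose library ranges did not overlap in any group, and the step from Cacna1e to Cacna1i was clear of overlap in the ACM and control groups. Cacna1b and Cacna1a, the main release-site channels, lay within the spread of each other, as did Cacna1c, Cacna1d and Cacna1e. Within libraries Cacna1b was above Cacna1a in 5 of 5 control and 4 of 4 wtSOD1-ACM libraries. The same held in 4 of 5 polyP and 3 of 5 mutSOD1-ACM libraries. Although ranges overlapped, Cacna1h exceeded Cacna1g in each of the 19 libraries.

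The T-type genes together made up 53.3% ± 3.88 of the summed FPKM of the 8 members in polyP cultures, 54.9% ± 2.50 in mutSOD1-ACM, 54.9% ± 2.75 in wtSOD1-ACM and 54.0% ± 2.40 in control cultures (SD, n = 5, 5, 4 and 5). The Cav2 family made up 34.3% ± 3.25 with polyP and 33.5% ± 2.12 in controls, and the L-type genes 12.3% ± 0.715 with polyP and 12.5% ± 0.420 in controls. The ranges of all 3 family shares overlapped between polyP and control cultures. The muscle L-type gene Cacna1s stayed between 0.76 and 1.88 FPKM over all libraries, and the retinal L-type gene Cacna1f did not pass the filter, with a highest value of 0.11 FPKM.

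**Figure D1:**
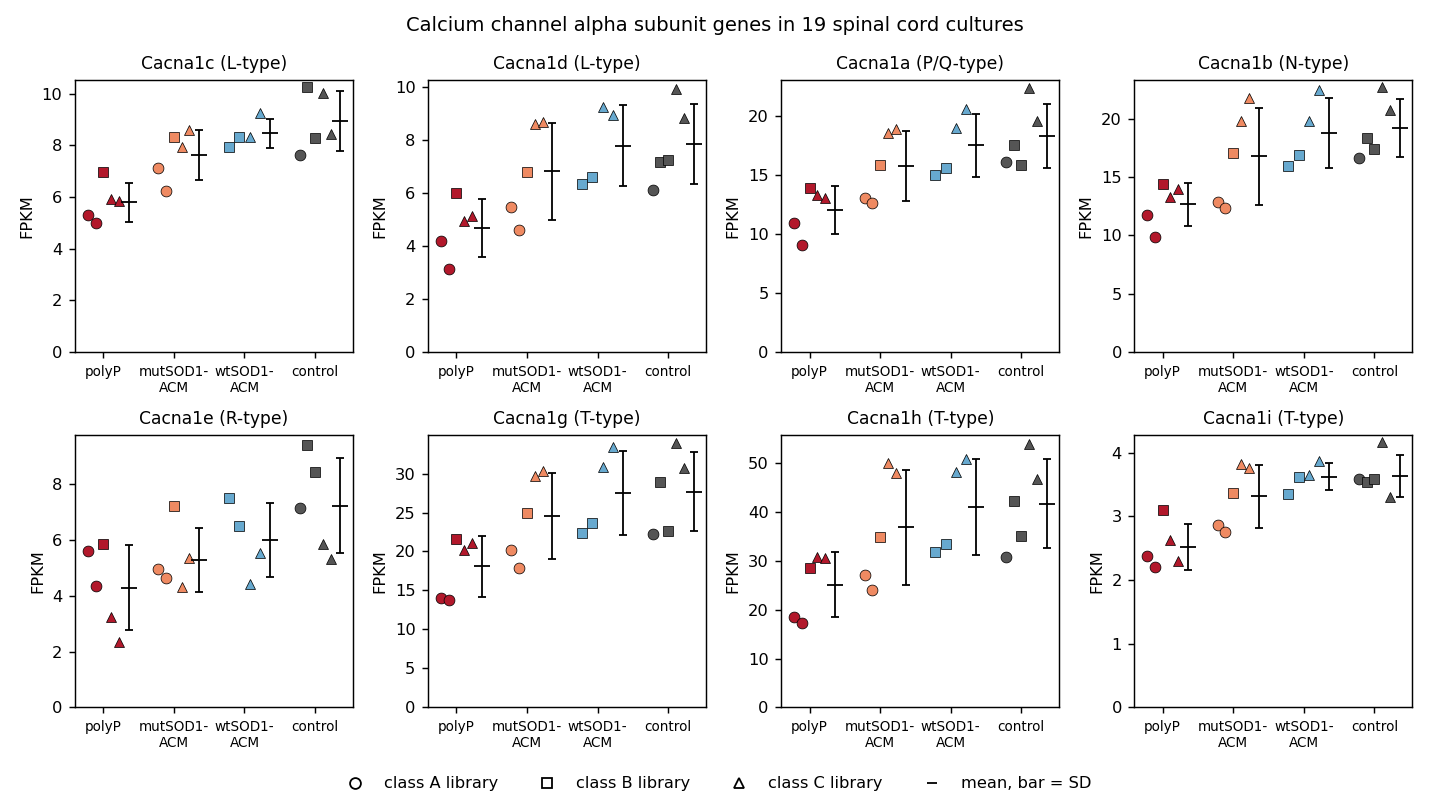
FPKM of each of the 8 alpha subunit genes in every library, 1 panel per gene, with the groups from left to right polyP, mutSOD1-ACM, wtSOD1-ACM and control. Points are libraries, their shape gives the class (A, B or C), and the bar beside them is the mean with its SD. Every polyP point lies below every control point in 6 panels, and the 2 groups overlap or touch for Cacna1e and Cacna1h.

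With polyP all 8 members fell. The mean FPKM of each was between 30.6% and 40.7% lower in polyP than in control cultures, and the 8 together summed to 85.2 ± 15.6 FPKM with polyP and 134 ± 20.9 FPKM in controls (SD, n = 5 each). Each passed limma's moderated test on log2(FPKM + 1) with Benjamini-Hochberg adjustment over all genes tested, at an adjusted p under 0.05. Over all 11887 genes 8.77% were called lower and 23% higher, and 31.8% in either direction. The median log2 change was -0.58 over the members and 0.04 over all genes. On this scale the change of a low gene is understated.

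Of the L-type genes, Cacna1c had 5.29, 4.98, 6.95, 5.91 and 5.84 FPKM in the polyP libraries and 7.63, 10.3, 8.29, 10.0 and 8.43 FPKM in the control libraries. All polyP values lay below all control values. Its log2 change was -0.55 with an SE of 0.096 (limma, adjusted p = 0.00044), the smallest adjusted p of the 8. Cacna1d, whose channel opens at more negative voltages than that of Cacna1c, had 4.17, 3.12, 6.00, 4.93 and 5.12 FPKM with polyP and 6.11, 7.15, 7.23, 9.92 and 8.82 FPKM in controls. Again the groups did not overlap, though the highest polyP and the lowest control library were close. The log2 change was -0.65 with an SE of 0.173 (limma, adjusted p = 0.00797).

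Of the Cav2 genes, Cacna1a had 10.9, 9.06, 13.9, 13.3 and 13.0 FPKM in the polyP libraries and 16.1, 17.6, 15.8, 22.4 and 19.6 FPKM in the control libraries. Cacna1b, the N-type gene, had 11.7, 9.85, 14.4, 13.2 and 13.9 FPKM with polyP and 16.65, 18.35, 17.4, 22.7 and 20.8 FPKM in controls. In both genes every polyP library lay below every control library, and polyP replicate 2 was lowest. The log2 change of each was -0.57, with SEs of 0.136 and 0.147 (limma, adjusted p = 0.00402 for Cacna1a and 0.00658 for Cacna1b). Cacna1e, the R-type gene, had 5.63, 4.37, 5.88, 3.24 and 2.33 FPKM with polyP and 7.17, 9.41, 8.43, 5.86 and 5.33 FPKM in controls. Its groups overlapped, because the last 2 libraries of each group, those of set 2, were the lowest of their group. Its log2 change was -0.67 with an SE of 0.196 (limma, adjusted p = 0.0144).

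Of the T-type genes, Cacna1g had 14.0, 13.8, 21.6, 20.2 and 21.1 FPKM in the polyP libraries and 22.3, 28.9, 22.6, 33.9 and 30.65 FPKM in the control libraries. The groups did not overlap, with the highest polyP library just below the lowest control. Cacna1h had 18.5, 17.3, 28.5, 30.8 and 30.6 FPKM with polyP and 30.8, 42.2, 35.0, 53.9 and 46.7 FPKM in controls. One value, 30.79 FPKM, stood both at the top of the polyP group and at the bottom of the control group. The change of Cacna1h was the largest of the 8 on log2(FPKM + 1), but not in mean FPKM. There it was 39.7% lower with polyP, against 40.7% for Cacna1e and 40.5% for Cacna1d. Cacna1i had 2.38, 2.20, 3.10, 2.63 and 2.30 FPKM with polyP and 3.58, 3.53, 3.58, 4.17 and 3.30 FPKM in controls, without overlap. The log2 changes were -0.59 (SE 0.174) for Cacna1g, -0.72 (SE 0.226) for Cacna1h and -0.40 (SE 0.0871) for Cacna1i (limma, adjusted p = 0.0146, 0.0206 and 0.00214).

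In all, 6 of the 8 members had groups without overlap, lower with polyP, against 4.31% of all genes. The 8 confidence intervals overlap one another. The fall was present within the library sets: in set 1 (3 polyP and 3 control libraries) all 8 members had polyP values below every control value, against 9.51% of all genes, with a median log2 change of -0.55. In set 2 (2 and 2) the same held, against 29.9% of all genes, with a median of -0.64. Within class A (2 polyP libraries and 1 control) the median was -0.60, within class B (1 and 2) it was -0.27, and within class C it was -0.64. With library class, chosen after seeing the data, as a term in the fit, the 8 log2 changes lay between -0.64 and -0.37. In the fit by group they lay between -0.72 and -0.40. All 8 were called with the class term (limma, adjusted p up to 0.000382). Without polyP replicate 1, polyP replicate 2 or control replicate 4, each left out alone, Cacna1h was no longer called (adjusted p up to 0.0630, limma). Without control replicate 2 all 8 were called, with adjusted p-values up to 0.0456 (limma).

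Cell type markers were read beside the fall. Over all genes 8.77% were called lower and 23% higher, and the neuron and fibroblast lists had no greater share called higher. Of the 10 neuron markers 1 rose, none fell and the median log2 change was 0.12 with polyP, so no general neuron marker was called lower. Of the 4 inhibitory neuron markers 2 fell, with a summed level between 115 and 142 FPKM in polyP and between 133 and 185 FPKM in control libraries. Of 2 excitatory neuron markers tested 1 fell, and the 3 on the list summed to between 20.3 and 25.6 FPKM with polyP and between 25.5 and 31.5 FPKM in controls. The 9 microglia markers had a median log2 change of -0.71 with none called, summing to between 51.7 and 172 FPKM with polyP and between 46.5 and 553 FPKM in controls. The highest of these control sums was that of replicate 2, and in set 2 the microglia sums were 51.7 and 58.7 FPKM with polyP and 46.5 and 49.2 FPKM in controls, the other way round. Of the 9 fibroblast and mural cell markers 2 rose and 2 fell, with a median log2 change of 0.22 and a summed level between 2315 and 2950 FPKM with polyP and between 1802 and 2638 FPKM in controls. Endothelial markers summed to between 7.45 and 11.0 FPKM with polyP and between 11.0 and 15.3 FPKM in controls, and the 4 markers of dividing cells, of which 2 rose and none fell, to between 131 and 163 FPKM with polyP and between 101 and 126 FPKM in controls. Of the 11 oligodendrocyte lineage markers 1 rose and 1 fell, with a median log2 change of -0.05. Their sum was higher with polyP in each class, at 718 and 731 against 500 FPKM in controls in class A. It was 897 against 844 and 872 FPKM in class B, and 227 and 226 against 131 and 159 FPKM in class C. Of the 8 astrocyte markers 1 rose and none fell, with a median of 0.03, and their sums overlapped. No list had a gene at 0 in every library of a group. The part of these shifts in the channel result was not tested. In bulk RNA, fewer cells of a type and less RNA per cell cannot be told apart.

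**Figure D2:**
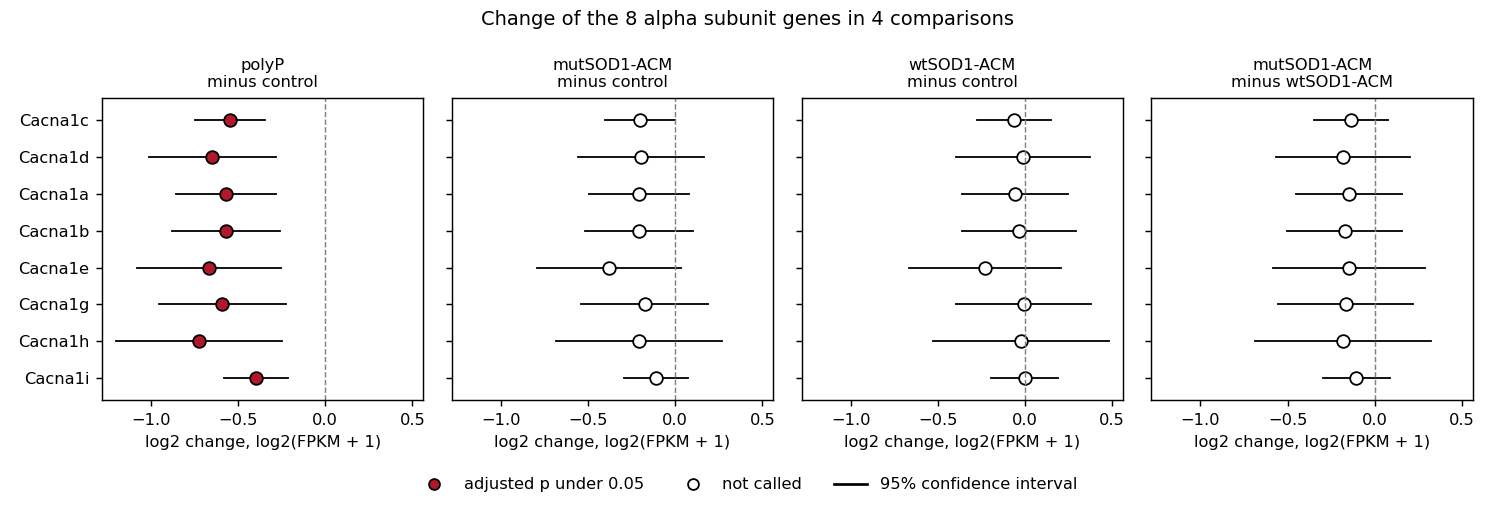
Log2 change, on log2(FPKM + 1), of the 8 alpha subunit genes in 4 comparisons, with 95% confidence intervals from limma. Filled points passed an adjusted p of 0.05. All 8 points are filled and lie between -0.72 and -0.40 for polyP minus control, and all are open in the 3 comparisons of conditioned media.

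The accessory subunits moved unevenly with polyP. Of the alpha2delta genes, Cacna2d2 had 33.3, 30.9, 40.5, 38.2 and 37.3 FPKM in the polyP libraries and 49.8, 51.2, 51.15, 70.9 and 61.1 FPKM in the control libraries, and Cacna2d3 averaged 18.2 ± 1.03 FPKM with polyP and 26.4 ± 3.59 FPKM in controls (SD, n = 5 each). In both the groups did not overlap and the level fell, by 0.64 and 0.51 on the log2 scale (limma, adjusted p = 0.00317 and 0.00293). Cacna2d1, which like Cacna2d2 binds the drug gabapentin, had 15.9 ± 2.93 FPKM with polyP and 17.7 ± 2.89 FPKM in controls (SD, n = 5 each), and its log2 change of -0.16 was not called (limma, adjusted p = 0.397), though it was with library class, chosen after seeing the data, as a term in the fit (adjusted p = 0.0291, limma). Cacna2d4 did not pass the filter.

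Of the 4 beta subunit genes Cacnb4 was the one called in the fit by group, lower by a log2 change of -0.24 (limma, adjusted p = 0.0356). The call was lost after quantile normalization, in set 1 alone, with only the 2 groups fitted, and without polyP replicate 1 or 5 or control replicate 3, 4 or 5, each left out alone (limma, adjusted p up to 0.264). Cacnb3, the most abundant beta gene, averaged 51.4 ± 11.0 FPKM with polyP and 53.2 ± 12.0 FPKM in controls (SD, n = 5 each), a log2 change of -0.05. Cacnb1 and Cacnb2 had log2 changes of -0.24 and -0.22 with wide errors, and none of these 3 was called in that fit (limma, adjusted p between 0.415 and 0.87). Cacnb1 was called lower with library set as a term in the fit, with the class term and in set 2 alone (limma, adjusted p = 0.00159, 0.00165 and 0.00252), and Cacnb2 with the set term and the class term and in set 2 alone (limma, adjusted p = 0.0259, 0.0328 and 0.0237). In the fit by group none of the 6 gamma subunit genes tested was called by limma, of which 1 had an unadjusted p under 0.05. Cacng4 and Cacng7, which are also regulators of AMPA receptors, had log2 changes of 0.31 and 0.18 (limma, adjusted p = 0.121 and 0.061). Both were called higher with the set term and the class term, in set 2 alone and without control replicate 1, and Cacng7 also without polyP replicate 3 (limma, adjusted p between 0.000554 and 0.0433 for Cacng4 and between 0.00505 and 0.0374 for Cacng7). Cacng2, Cacng3, Cacng5 and Cacng8 had log2 changes of 0.12, -0.08, -0.05 and -0.24. Cacng8 was called lower with the set term, the class term and in set 2 alone (limma, adjusted p = 0.034, 0.000894 and 0.00537). Cacng1 and Cacng6 did not pass the filter. Cacna1s fell by 0.35 on the log2 scale (limma, adjusted p = 0.0293), at a level near the filter, and the call was lost after quantile normalization, in set 1 alone, with only the 2 groups fitted, and without polyP replicate 1 or 2 or control replicate 2, 4 or 5, each left out alone (limma, adjusted p up to 0.217).

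**Figure D3:**
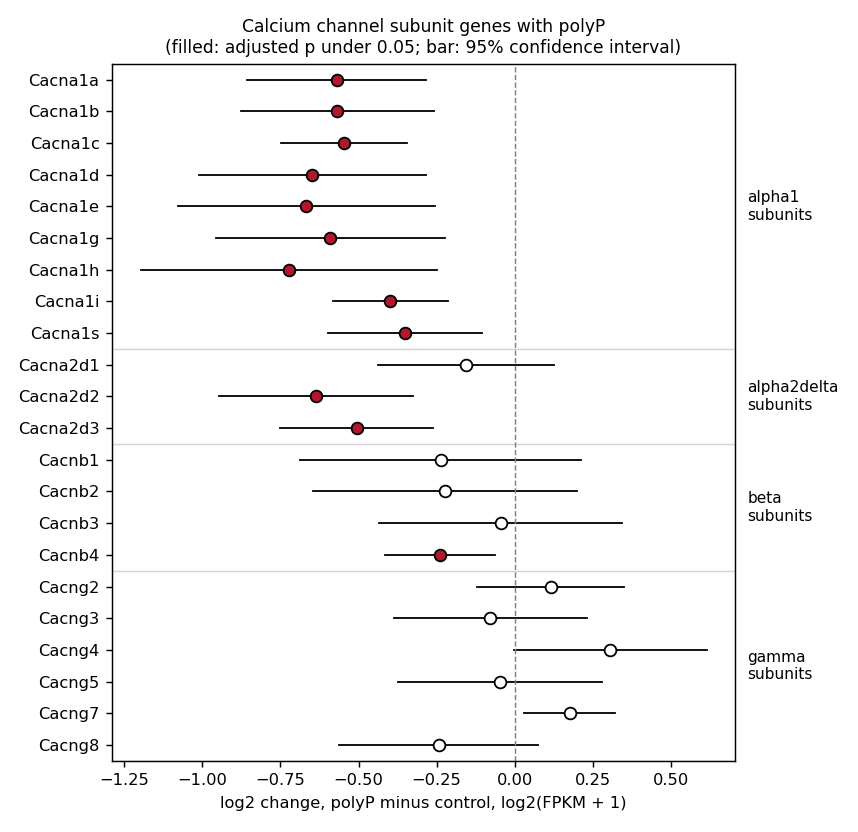
Log2 change with polyP against control for every calcium channel subunit gene tested, grouped as alpha1, alpha2delta, beta and gamma subunits, with 95% confidence intervals from limma. Filled points passed an adjusted p of 0.05 in the fit by group. The 9 alpha1 points, Cacna2d2, Cacna2d3 and Cacnb4 are filled and negative, while no gamma point is filled.

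Genes that work with the channels did not all move one way. The pumps, exchangers and store channels that clear or release calcium had 8 of 12 tested genes lower and none higher with polyP, with a median log2 change of -0.42, where 8.77% of all genes were called lower. The reticulum pump Atp2a2 fell by 0.54 and the plasma membrane pump Atp2b1 by 0.50 on the log2 scale (limma, adjusted p = 0.000215 and 0.000515), and the exchanger Slc8a1 had -0.25 (adjusted p = 0.162), which was called with the set term (adjusted p = 0.000582, limma) and the class term and in either set alone. The sodium channel alpha subunits, which drive the depolarisation that opens calcium channels, had 5 of 7 tested genes lower and none higher, with a median of -0.39. Scn3a, Scn2a and Scn8a fell by 0.39, 0.36 and 0.50 on the log2 scale (limma, adjusted p = 0.00724, 0.00275 and 0.000911). In the complex of the sodium leak channel, Unc79 fell by 0.24 (limma, adjusted p = 0.0414), and Nalcn itself had -0.18 (adjusted p = 0.537). In set 1 alone the calls of Scn3a, Scn2a and Unc79 were lost (limma, adjusted p = 0.094, 0.0559 and 0.0933), while Nalcn was called in set 2 alone (adjusted p = 0.0381, limma). Unc79 was also lost without a filter and without polyP replicate 1, 2 or 5 or control replicate 2, 3, 4 or 5, each left out alone (limma, adjusted p up to 0.119).

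The remaining counts stand beside shares of 8.77% lower and 23% higher over all genes. Release-site partners of the Cav2 channels had 3 of 15 tested genes lower and none higher, with a median of -0.15. Of its abundant genes, Snap25 and Syt1 had log2 changes of 0.08 and -0.13 and were not called (limma, adjusted p = 0.592 and 0.482). Channel modulators had 3 of 10 genes higher and none lower, with a median of 0.12, a share near that of all genes. Calm2 averaged 835 ± 84.8 FPKM in polyP and 687 ± 117 FPKM in control cultures (SD, n = 5 each), a log2 change of 0.29, with Calm3 at 0.29 (limma, adjusted p = 0.0346 and 0.0325). Both encode calmodulin, the calcium sensor bound to L-type and Cav2 channels. Neither call held after any of the 3 scalings between libraries, where Calm2 had 0.23, 0.18 and -0.014 and Calm3 0.22, 0.17 and 0.11 after median-of-ratios, equal-sum and quantile scaling (limma, adjusted p between 0.0837 and 0.9). Both were also lost in set 1 alone, with only the 2 groups fitted, and without polyP replicate 1, 2 or 4 or control replicate 2 or 4, each left out alone, and Calm2 without polyP replicate 5. Calcium-dependent signalling genes had 3 of 18 higher and 2 lower, with a median of -0.03, again near the shares of all genes. The calcineurin subunits Ppp3r1 and Ppp3cb had log2 changes of 0.33 and 0.21, and the kinase subunit Camk2b had -0.16 (limma, adjusted p = 0.00533, 0.00989 and 0.207). Both calcineurin calls were lost in set 1 alone (limma, adjusted p = 0.0861 and 0.106), and that of Ppp3cb after median-of-ratios and equal-sum scaling and with only the 2 groups fitted. Camk2b was called lower at equal summed FPKM, with the set term, in set 2 alone and without control replicate 2 (limma, adjusted p between 0.00892 and 0.04). Of 5 calcium-activated potassium channel genes 1 was called higher, also near the share of all genes. It was Kcnmb4 at 0.21 (limma, adjusted p = 0.0452), and the call was lost in 6 of 13 alternatives, all 3 scalings among them, and with 13 of the 19 libraries left out singly. Kcnn2 had -0.02, and Kcnn3 had -0.29, which was called with the set term and the class term (limma, adjusted p = 0.0284 and 0.0262).

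No member was called with either conditioned medium. With mutSOD1-ACM none of the 8 was called by limma against control, with log2 changes between -0.38 and -0.11, a median of -0.20 and an adjusted p of 0.966 for each. All 8 were negative and in the fit by group 1, Cacna1c, had an unadjusted p under 0.05 (0.0495). Over all genes 0.0168% were called in that fit. With the set term Cacna1a, Cacna1b, Cacna1c and Cacna1e had an unadjusted p between 0.00777 and 0.0434 (limma). With the replicate number as a block these genes had between 0.0148 and 0.0335 (limma). No member was called in either fit (limma, adjusted p of 0.538 and 0.596 at the lowest), against 0.0168% and 0.0421% of all genes. Cacna1e had 4.97, 4.63, 7.22, 4.31 and 5.36 FPKM in mutSOD1-ACM libraries, with a log2 change of -0.38 and a confidence interval of -0.79 to 0.03. Cacna1h had 27.15, 24.1, 34.9, 49.9 and 48.05 FPKM, with the first 2 libraries, those of class A, below the control range and the other 3 inside it. In set 2 alone the median log2 change of the 8 was -0.10, and in set 1 it was -0.25. The ranges of all 8 overlapped those of control, while 0.118% of all genes lay wholly below control.

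With wtSOD1-ACM none of the 8 was called against control, with a median log2 change of -0.03 and no unadjusted p under 0.05 (limma). Cacna1h had 31.8, 33.5, 48.2 and 50.8 FPKM and Cacna1c had 7.95, 8.30, 8.32 and 9.26 FPKM in wtSOD1-ACM libraries, all inside the control range. Other members had wtSOD1-ACM libraries below the lowest control. These were Cacna1a (15.01 and 15.60 against 15.83 FPKM), Cacna1b (15.97 against 16.65 FPKM) and Cacna1e (4.43 against 5.33 FPKM). Over all genes 0.631% were called. The wtSOD1-ACM group has no library of class A and the control group has 1. With the class term the 8 log2 changes against control lay between -0.23 and -0.035. None was called in that fit (limma, adjusted p of 0.427 at the lowest). For mutSOD1-ACM against control it gave -0.32 to -0.077, with none called. Within class B (2 wtSOD1-ACM and 2 control libraries) all 8 were lower with wtSOD1-ACM, with a median log2 change of -0.14. The direct comparison of mutSOD1-ACM with wtSOD1-ACM also called none of the 8, with log2 changes between -0.18 and -0.11, an adjusted p of 0.998 for each and no unadjusted p under 0.05 (limma). The wtSOD1-ACM group has no library of class A and the mutSOD1-ACM group has 2. With the class term the 8 log2 changes lay between -0.096 and 0.026, and within class B (1 mutSOD1-ACM and 2 wtSOD1-ACM libraries) 7 of the 8 were higher with mutSOD1-ACM, with a median of 0.05. The widest of the 8 confidence intervals, that of Cacna1h, ran from -0.69 to 0.32. Over all genes 0.471% were called. These comparisons share the control libraries or each other's, so their values are not independent of one another.

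Whether polyP and mutSOD1-ACM differ in these genes was tested directly, since the series asks about transcripts common to both. In the fit by group alone 2 of the 8 were called, both lower with polyP, against 4.9% of all genes called lower and 19.7% in either direction. Cacna1c had 5.29, 4.98, 6.95, 5.91 and 5.84 FPKM in polyP and 7.10, 6.23, 8.30, 7.94 and 8.59 FPKM in mutSOD1-ACM libraries. The groups overlapped at 1 mutSOD1-ACM library, and the log2 difference was -0.34 (limma, adjusted p = 0.0182). Cacna1i had 2.38, 2.20, 3.10, 2.63 and 2.30 FPKM in polyP and 2.86, 2.76, 3.37, 3.82 and 3.75 FPKM in mutSOD1-ACM libraries, with 3 of the 5 mutSOD1-ACM values above all polyP values. Its log2 difference was -0.29 (limma, adjusted p = 0.0267). The other 6 had log2 differences between -0.52 and -0.29 that did not pass (adjusted p between 0.0721 and 0.353, limma). Of the 8, 7 had an unadjusted p under 0.05, and the groups of all 8 overlapped, while 3.92% of all genes lay wholly lower with polyP.

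In this comparison the library replicate number was also used as a block, as given under the processing. Same-numbered polyP and mutSOD1-ACM libraries share a class, so the block overlaps with the class split, and pairing of the cultures was not established. With the replicate number as a block 7 of the 8 were called lower with polyP, all but Cacna1e (limma, adjusted p = 0.186), against 10.1% of all genes. Between libraries of the same number polyP was the lower in 5 of 5 for 7 members and in 4 of 5 for Cacna1e. A library set term also gave 7, against 10.8% of all genes, and a class term, chosen after seeing the data, gave all 8, against 16.5%. With the class term Cacna1h differed by -0.52 (95% confidence interval -0.66 to -0.37, adjusted p = 3.6e-05, limma). Within set 2 alone all 8 were called, against 15.4% of all genes, with a median of -0.55, and no member's groups overlapped, which held for 28.8% of all genes. Within set 1 alone limma called none, against 0.471% of all genes, with a median of -0.29, and the groups overlapped in all 8, while 9.45% of all genes lay wholly lower. The difference between sets was tested as an interaction and no member passed (limma, adjusted p of 0.928 at the lowest). Of all genes tested 0 passed either, so with so few libraries per set this test cannot tell whether the sets differ. The largest estimate among the members was that of Cacna1e, 0.57 for set 1 minus set 2 (limma, unadjusted p = 0.0325). Over single libraries left out, between 0 and 6 of the 8 were called: 0 without polyP replicate 2, mutSOD1-ACM replicate 3 or mutSOD1-ACM replicate 5, 1 without polyP replicate 1, polyP replicate 5 or mutSOD1-ACM replicate 4, 3 without polyP replicate 3, 4 without mutSOD1-ACM replicate 1 and 6 without mutSOD1-ACM replicate 2.

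**Figure D4:**
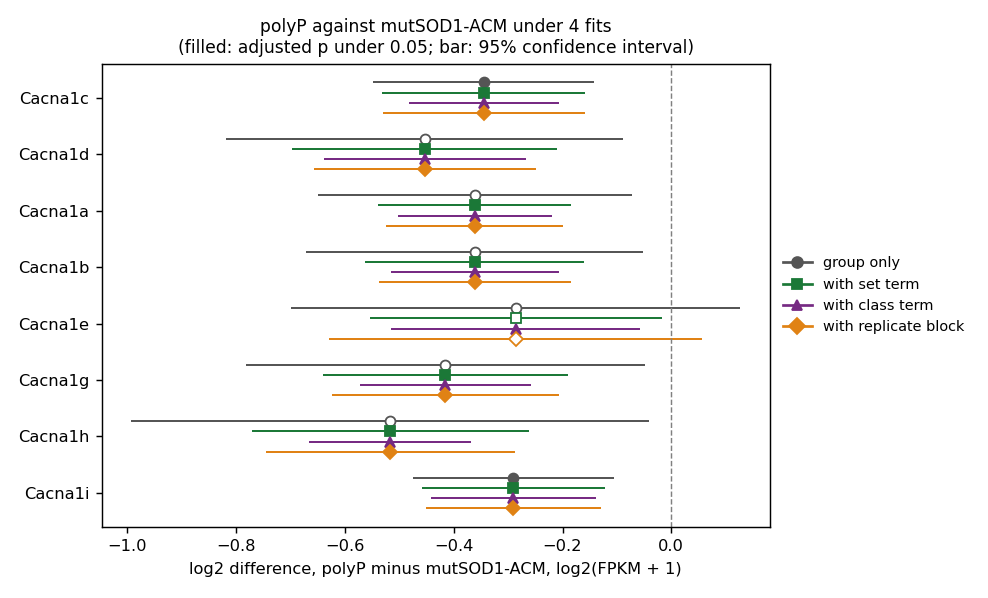
Log2 difference between polyP and mutSOD1-ACM cultures for each of the 8 members, from 4 limma fits: group only, with a library set term, with a class term and with the replicate number as a block. Bars are 95% confidence intervals and filled points passed an adjusted p of 0.05. The estimates are the same in the 4 fits while the intervals narrow, from 2 filled points by group only to 8 with the class term.

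Among accessory subunits in the same comparison, Cacna2d3 and Cacna2d2 were lower with polyP than with mutSOD1-ACM, by log2 differences of -0.41 and -0.43 (limma, adjusted p = 0.0202 and 0.0496), and no beta or gamma gene was called in the fit by group. The call of Cacna2d3 was lost in set 1 alone and without polyP replicate 2, mutSOD1-ACM replicate 4 or mutSOD1-ACM replicate 5 (limma, adjusted p up to 0.113). That of Cacna2d2, at the threshold, was lost in 4 of 13 alternatives, set 1 alone among them (limma, adjusted p = 0.234), and with 13 of the 19 libraries left out singly.

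The members also varied with the library sets. Cacna1h was higher in set 2 than in set 1 in each of the 4 groups, by 1.43-fold with polyP, 1.71-fold with mutSOD1-ACM, 1.52-fold with wtSOD1-ACM and 1.40-fold in controls, with no overlap between sets. Cacna1g, Cacna1a, Cacna1b and Cacna1d were higher in set 2 without overlap in the mutSOD1-ACM, wtSOD1-ACM and control groups, and overlapped with polyP. Cacna1e ran the other way, at 0.53 of its set 1 level with polyP, 0.86 with mutSOD1-ACM, 0.71 with wtSOD1-ACM and 0.67 in controls, with overlap in the mutSOD1-ACM group. Within set 1 Cacna1h with polyP was lower in class A, at 18.5 and 17.3 FPKM, than in class B, at 28.5 FPKM. In controls it had 30.8 FPKM in class A and 42.2 and 35.0 FPKM in class B. The control values of Cacna1a (16.1 in class A, 17.6 and 15.8 FPKM in class B) did not part by class. Since the sets and classes were found from these libraries, this is a description with no test.

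Across libraries the members had high correlations with one another, as they had with some genes outside the family. Over the 28 pairs of members, Pearson's r of log2(FPKM + 1) ran from 0.80 to 0.99 within set 1 (n = 11) and from 0.90 to 0.99 within set 2 (n = 8), and 22 pairs were over 0.9 in both. Libraries of 4 treatments enter each r, so the r values contain the polyP difference and the shared scaling of each library. Tested genes other than the 8 members were ranked by the smaller of the 2 within-set r values, leaving out symbols that are only identifiers. The 2 highest were Disp1 and Celsr3 for Cacna1c, Trank1 and Dgkq for Cacna1d, Dennd6b and Cntnap1 for Cacna1a, and Cacna2d2 and Kcnt1 for Cacna1b. They were Reln and Tenm2 for Cacna1e, Reck and Arse for Cacna1g, Reck and Rnf123 for Cacna1h, and Shank1 and Chd5 for Cacna1i. The smaller r was between 0.96 and 0.99 in all of them. For the N-type gene Cacna1b the first gene in that ranking was the alpha2delta gene Cacna2d2, with r of 0.98 in each set. Kcnt1 and the member Cacna1a also had 0.98 in each set.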

How the data were processed

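Per the labels' protocols, total RNA was taken from the cultures and polyA-enriched libraries were made. The submitters' processing notes name HISAT and the build rn6; no source used here states their versions, the annotation or the tool that computed FPKM. The authors deposited FPKM per gene with 2 decimals, used as deposited. Columns were matched to samples by their numbers.

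Genes with FPKM of 1 or more in at least 4 libraries (11887 of 15597) were fitted with limma 3.58.1 in R 4.3.3 (trend and robust options) on log2(FPKM + 1), with all 4 groups in 1 fit by group only, and two-sided p-values were Benjamini-Hochberg adjusted over the genes tested in each comparison. The fit was tested on simulated data. Library sets and classes came from Ward clustering of log2(FPKM + 1), cut at 2 and at 3. Relative depth came from 87 genes with low values (481 values, 97.3% within 0.1 fragment of a whole number, on the genes it was fitted to). A fall in depth widens the error of low genes such as Cacna1i.

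All 8 members and every calcium channel subunit gene tested are named, and of other gene lists the 3 most abundant, except items not reported here. Members and lists were chosen with earlier results of these data known. Same-numbered polyP and mutSOD1-ACM libraries deviated together from their group means in all 5 pairs (r between 0.69 and 0.76 over genes), and the number was used as a block. These libraries also share a class at every number. A shared class alone can give such r, so these values do not establish pairing. Alternatives were pseudocount, filters, scaling, set and class terms, sets alone, the replicate block, 2 groups only, plain limma and leaving out each library. Without strand information on the counting, overlapping antisense genes cannot be separated.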

Additional observations from a re-analysis of the deposited data

How the results depend on the processing

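The fall of all 8 members with polyP against control held in most alternatives: 8 were called in each except 7 with a filter of FPKM 5 or more, which removes Cacna1i, 7 in set 1 alone (Cacna1d, adjusted p = 0.0514, limma) and 7 without polyP replicate 1, polyP replicate 2 or control replicate 4. Against mutSOD1-ACM the count of 2 became 1 with the filter of FPKM 5 or more, 1 with only the 2 groups fitted, 3 after median-of-ratios scaling (Cacna1a added), 7 with the set term, 8 with the class term, 0 in set 1 alone, 8 in set 2 alone and 0 to 6 over single libraries left out. With the replicate block it was 7. It stayed at 2 after quantile normalization, with Cacna1a called and Cacna1i not (limma, adjusted p = 0.0461 and 0.0519). For the other comparisons not all numbered pairs deviated together. Between polyP and control r was 0.068 at replicate 2, where the classes differ (A and B), and between 0.51 and 0.69 at the other numbers. The lowest r, -0.72, was at replicate 3 of mutSOD1-ACM and wtSOD1-ACM, where the sets differ. Shared class enters these r, so they do not show whether the samples are pairs. With the block the polyP minus control calls over all genes went to 5730, against 3779 without it, and all 8 members were called. The block also brought calls for Cacnb1, Cacng4, Cacng7, Slc8a1 and Camk2b (limma, adjusted p between 0.00176 and 0.0243).

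Calls over all genes also differed with the set term (6194) and the class term (6631) and in set 1 alone (2470). Of the calls, 72.4% were higher as deposited, 56.5% after median-of-ratios scaling and 45.7% at equal summed FPKM, where the median of all genes was -0.06 in place of 0.04. Against mutSOD1-ACM the share was 75.1% as deposited and 52.0%, 51.3% and 64.6% after median-of-ratios, equal-sum and quantile scaling.

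Of values called as reported, the sign turned for Calm2 alone, at -0.014 after quantile normalization. Of those not called, with polyP minus control, Snap25 was -0.036 at equal summed FPKM and -0.029 after quantile normalization, Syt1 was 0.027 in set 2, Kcnn2 was 0.00048 after quantile normalization and 0.0069 in set 2, Cacng3 was 0.018 in set 1, and Cacng5 was 0.047 after quantile normalization, 0.20 in set 2 and 0.0064 with the class term. With mutSOD1-ACM minus control, Cacna1i was 0.021 in set 2. With wtSOD1-ACM minus control, the block gave 0.041 for Cacna1d, 0.022 for Cacna1b, 0.053 for Cacna1g and 0.054 for Cacna1h, and Cacna1i was 0.020 after quantile normalization and 0.013 in set 2. With mutSOD1-ACM minus wtSOD1-ACM, Cacna1h was 0.026 with the class term and Cacna1i 0.0079 in set 2. With single libraries left out, polyP minus control ran from -0.032 to 0.12 for Snap25, -0.056 to 0.018 for Kcnn2, -0.13 to 0.039 for Cacnb3, -0.0078 to 0.20 for Cacng2, -0.19 to 0.019 for Cacng3 and -0.13 to 0.027 for Cacng5. Likewise wtSOD1-ACM minus control ran from -0.091 to 0.069 for Cacna1d, -0.14 to 0.014 for Cacna1a, -0.12 to 0.037 for Cacna1b, -0.10 to 0.083 for Cacna1g, -0.13 to 0.086 for Cacna1h and -0.028 to 0.038 for Cacna1i. The other genes of pathway lists named in the text kept their sign in these settings, which were applied to them after seeing the data. The cause of these shifts was not tested.

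A fit with the trend on protein length removed was planned and was not run, since protein lengths were not at hand, so dependence on transcript length was not tested. Absolute depth is unknown, and the labels give no batch.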
